A study of Mus musculus with 8 samples.

Results

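The genes described here are 10 transcriptional regulators of the Sox, Id and Hes families that are known to restrain differentiation: Sox2, Sox4, Sox5, Sox6, Sox9, Sox11, Id2, Id4, Hes1 and Hes5. They were chosen by name, with earlier results of these data known. Of the 10, 8 were among the 11315 genes listed in the RNA tables (Sox5 and Hes5 were not), and all 10 had CpG sites in the tables of DNA hydroxymethylation, 738 of 1497075 sites in all. Transcripts were measured by RNA-sequencing, and hydroxymethylation by a reduced representation method (RRHP), in cells sorted by fluorescence from brains of C57BL/6 mice at postnatal day 60. The progenitors (aOPC, adult oligodendrocyte progenitor cells) came from Pdgfra-H2BEGFP mice, in which the Pdgfra locus drives EGFP fused to a histone, and adult oligodendrocytes (aOL) from Plp-EGFP mice, in which EGFP marks the oligodendrocyte lineage. Each population had 2 RNA libraries and 2 RRHP libraries, numbered replicates 2 and 3, with RNA and DNA taken from the same pellet of cells. The study's methods also list a replicate 1 of both populations, for RNA and for RRHP, which was not analysed here. The populations differ in reporter line as well as in cell type, and these cannot be told apart. Pdgfra is also active in fibroblast-like cells of the vessel wall and meninges, and a stable nuclear EGFP can outlast Pdgfra expression in a cell that differentiates. The study reports a Percoll gradient before sorting to remove vessels and meninges. It also reports staining in which most sorted cells carried the markers of their population. The tissue label of the aOL samples for RRHP names the Pdgfra reporter in place of their own. Their titles decided the group. The aOL samples for RNA are called pre-myelinating in their titles and myelinating in their protocol.

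Sox proteins bind DNA through an HMG box. Sox2, of the SoxB1 group, maintains neural stem and progenitor cells, Sox9, of the SoxE group, specifies glia, the SoxC proteins Sox4 and Sox11 act in immature precursors, and the SoxD proteins Sox5 and Sox6 lack an activation domain of their own and counteract Sox9 and Sox10 at myelin genes. Id proteins have a helix-loop-helix without a DNA-binding region and hold E proteins and their bHLH partners away from DNA, and BMP signalling induces them. Hes proteins are bHLH repressors that recruit Groucho co-repressors and are switched on by Notch through the factor RBPJ. 5-hydroxymethylcytosine (5hmC) is made from 5-methylcytosine by TET enzymes. In RRHP a 5hmC in the sequence CCGG is glucosylated, and the enzyme MspI then fails to cut there. Uncut sites yield reads.

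The libraries did not separate along the labels in every respect. Mbp, a myelin gene, was at log2 values of 19.58 and 17.55 in aOPC replicates 2 and 3 and at 19.17 and 19.40 in the aOL libraries. Of 12 myelin genes tested, 4 were lower and 1 was higher in aOL at an unadjusted p under 0.05, led by Opalin at 16.13 and 15.88 in aOPC and 15.17 or less in aOL. Pdgfra was at 7.54 and 5.47 in aOPC and at 4.98 and 1.63 in aOL. The summed linear level of the 10 progenitor markers tested, as log2, was 14.06 and 11.26 in aOPC replicates 2 and 3. In aOL it was 11.73 and 12.02, so aOPC replicate 3 lay below both aOL libraries. Of the 10, 7 had a difference (aOL minus aOPC) below 0 and 3 above. Matn4 was above, at 8.63 and 8.14 in aOPC and at 8.84 and 9.54 in aOL. At an unadjusted p under 0.05, 2 of the 10 were lower and 0 higher (Neu4 led, from 9.90 and 7.07 to 3.03 and 3.61). The 5 markers of vascular leptomeningeal cells tested were all lower in aOL at that threshold, with Col1a2 at 10.06 and 9.59 against 7.03 and 6.08. Of 3 endothelial and mural markers 2 were higher (Cldn5 at 0.33 and 1.80 against 5.92 and 7.13), and 1 of 4 neuronal markers and 1 of 10 microglial markers were lower, Stmn2 and Tmem119. Ddx3y, a gene of the Y chromosome, was at 12.43 in aOPC replicate 2 and at 0.32 to 1.63 in the other RNA libraries, which sets that library apart in a gene that only males carry. Its part in the values below was not tested. In RRHP, the totals ran from 7113237 counts (aOPC replicate 2) to 27057859 (aOL replicate 3), and the share of counts in CpG islands was 5.74% in aOPC replicate 2 against 2.38% to 3.32% in the other libraries.

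In RNA, 7 of the 8 listed factors were lower in both aOL libraries than in both aOPC libraries, and none was higher. Groups that do not overlap in this direction were found in 29.9% of the 11133 genes tested. At an unadjusted p under 0.05, 6 of the 8 were lower and 0 higher (limma), where 12% of all genes were lower and 12.1% higher. None passed the call of p under 0.01 with an adjusted p under 0.05, which 0.0808% of genes did (9 genes), and the smallest adjusted p of a member, for Id2, was 0.112 (limma). The median difference was -1.87 on the log2 scale over the 8 factors and 0.02 over all genes. The factors were chosen with earlier results known, so these shares and medians describe the list and do not test it. These are bulk samples, in which fewer cells of a type and less RNA per cell cannot be told apart. The values are not per gene length, so single genes were compared between libraries only and not with each other. In the sums over marker lists the genes with the highest values weigh most.

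**Figure D1:**
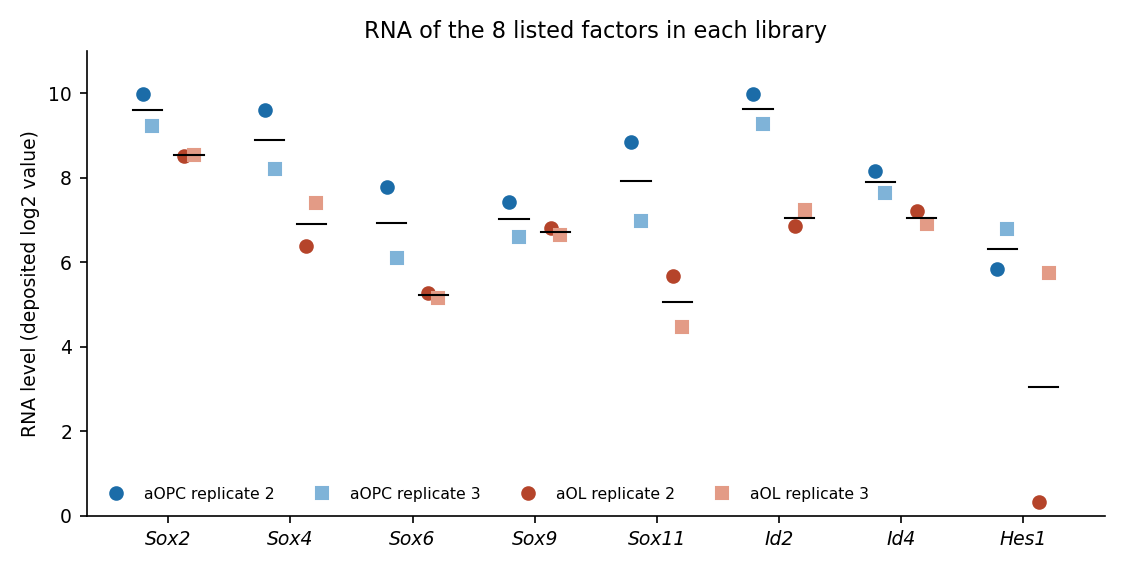
RNA level (deposited log2 value, vertical axis) of the 8 listed factors in each of the 4 libraries, with blue for aOPC, red for aOL, circles for replicate 2, squares for replicate 3 and black bars for the mean of each pair. Id2 stands furthest apart relative to its spread, Sox9 overlaps, and Hes1 has a single low point at 0.32 in aOL replicate 2.

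Id2 had the smallest p of the 8 factors. It was at 9.99 and 9.26 in aOPC replicates 2 and 3, and at 6.85 and 7.24 in aOL replicates 2 and 3. The lowest aOPC value lay 2.03 log2 units above the highest aOL value, and the populations differed by -2.58 with a standard error of 0.34 (95% interval -3.51 to -1.65, limma adjusted p = 0.112), a 5.98-fold lower level. Id4 was at 8.15 and 7.63 in aOPC and at 7.20 and 6.90 in aOL, again with no overlap but with a gap of only 0.43. Its difference was -0.84 (standard error 0.28, limma adjusted p = 0.19). Id genes are also expressed in vascular cells. The summed linear level of the leptomeningeal list, as log2, was 11.29 and 11.50 in aOPC against 8.39 and 7.15 in aOL, so it moved with Id2. That of the 3 endothelial and mural markers moved the other way, at 9.15 and 9.64 against 9.93 and 11.02. Kdr was the highest of the 3 in each library, at 9.07 and 9.36 in aOPC and at 9.73 and 10.07 in aOL. The part of vascular cells in the Id values was not tested.

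The SoxC factors Sox4 and Sox11 had lower values in aOL and varied within each population. Sox11 was at 8.85 and 6.96 in aOPC and at 5.66 and 4.46 in aOL, a difference of -2.85 with a standard error of 0.80 (95% interval -5.02 to -0.67, limma adjusted p = 0.165). Sox4 was at 9.61 and 8.19 in aOPC and at 6.39 and 7.39 in aOL, a difference of -2.01 (standard error 0.63, limma adjusted p = 0.181). The aOPC libraries lay 1.89 apart for Sox11 and 1.41 apart for Sox4, with replicate 2 above replicate 3 for both. Those gaps were smaller than the differences between populations, by 0.96 and 0.60 log2 units. Sox4, Sox11 and Sox2 are also expressed in young neurons or their precursors. The 6 neuroblast markers tested were all below 0 (median difference -1.30), and 2 were lower at an unadjusted p under 0.05, Cd24a and Sp9. Dcx was at 7.60 and 6.75 in aOPC and at 6.21 and 6.81 in aOL, with overlap, and the summed linear level of the list, as log2, was 10.30 and 9.28 in aOPC against 8.96 and 8.37 in aOL. None of the 6 was at the bottom of the scale in aOPC, Dlx1 was at 0.32 in aOL replicate 3, and the part of such cells in the SoxC values was not tested.

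Sox2 was at 9.98 and 9.23 in aOPC and at 8.52 and 8.53 in aOL. The aOL libraries lay within 0.02 of each other, and the difference of -1.08 (standard error 0.32, limma adjusted p = 0.174) exceeded the 0.75 between the aOPC libraries. Sox9 was at 7.42 and 6.59 in aOPC and at 6.80 and 6.63 in aOL. It was the only listed factor whose groups overlapped, and its difference was -0.29 (95% interval -1.24 to 0.66, limma adjusted p = 0.627), a range that still includes a difference of more than 1 log2 unit downwards. Sox2 and Sox9 are also expressed in astrocytes. Of 10 astrocyte markers tested, 7 were below 0 (median difference -0.60) and 1, Gfap, was lower in aOL at an unadjusted p under 0.05, while Aldh1l1 was at 7.48 and 6.14 in aOPC and at 7.37 and 7.47 in aOL. The part of astrocyte RNA in these values was not tested.

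Sox6, of the SoxD pair Sox5 and Sox6, was listed in RNA. It was at 7.77 and 6.10 in aOPC and at 5.28 and 5.14 in aOL, a difference of -1.72 (standard error 0.61, limma adjusted p = 0.202). The groups did not overlap, and the aOPC libraries lay 1.67 apart. Hes1 was at 5.83 and 6.79 in aOPC and at 0.32 and 5.75 in aOL. The value of 0.32 in aOL replicate 2 was the lowest in that library and was shared by 20 genes, and without it Hes1 differed by -0.56 instead of -3.28 (95% interval of the latter -8.53 to 1.98, limma adjusted p = 0.357). The size of its difference thus rested on 1 library.

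Leaving out a library moved these results. Without aOPC replicate 2, which was the higher of the pair for 7 of the 8 factors, 3 were called (Id2, Sox2 and Sox6), the same as without aOPC replicate 3. With 3 libraries, the lone sample was assumed to vary like the others, and 3805 and 1974 genes were then called in all, against 9 with all 4 libraries. The difference of Sox6 was -0.89 without aOPC replicate 2 and -2.56 without aOPC replicate 3. Without aOPC replicate 2 the differences were also closer to 0 for Sox2 (-0.705), Sox4 (-1.30), Sox11 (-1.90), Id2 (-2.22) and Id4 (-0.58), while that of Sox9 turned to 0.12 and that of Hes1 lay further from 0, at -3.75. Without aOL replicate 3 only Hes1 was called, with both aOPC values against the 0.32, and 106 genes were called in all.

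The factors' relatives and partners did not move together in RNA. Counts are at an unadjusted p under 0.05, since no gene of these lists was called (limma). Of 6 other Id, Hes and Hey genes tested, 2 were lower in aOL and 0 higher. Id1, a further Id protein, was at 7.89 and 7.95 in aOPC and at 5.20 and 4.88 in aOL, a difference of -2.88 (standard error 0.22, limma adjusted p = 0.0611), and Id3 was the other. Heyl, a relative of the Hes repressors, had the smallest p upwards, at 4.32 and 5.08 against 5.38 and 8.19 (limma adjusted p = 0.291). Of 5 other Sox genes tested, 2 were higher and 0 lower. Sox13, a further SoxD gene, was at 8.40 and 7.72 in aOPC and at 9.85 and 10.01 in aOL (difference 1.87, limma adjusted p = 0.126), the opposite direction to Sox6. The other was Sox12, a SoxC gene named after its values were seen, at 9.23 and 8.93 in aOPC and at 9.94 and 9.999 in aOL (difference 0.89, limma adjusted p = 0.147), opposite to Sox4 and Sox11. Sox8, a SoxE gene, was at 14.42 and 14.70 in aOPC and at 14.06 and 14.11 in aOL (limma adjusted p = 0.256).

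Upstream of Hes and Id, 22 genes of Notch and BMP signalling were tested, and 5 were higher and 1 lower in aOL, with a median difference of 0.40. The one below was Bmp4, a ligand, at 9.08 and 6.83 in aOPC and at 3.37 and 4.20 in aOL (difference -4.16, limma adjusted p = 0.134). Maml3, a co-activator of Notch and RBPJ, had the smallest p upwards, at 5.37 and 5.79 in aOPC and at 7.41 and 7.42 in aOL (difference 1.83, limma adjusted p = 0.111). The other genes above 0 at this threshold were the Notch ligand Dll1, the BMP receptor Bmpr1a, along with Smad5 and Smad9, which carry the BMP signal. Rbpj itself was at 10.57 and 11.31 in aOPC and at 11.44 and 11.42 in aOL.

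Of 13 Groucho and histone deacetylase co-repressors tested, 1 was higher, Tle4, at 10.42 and 10.89 in aOPC and at 11.40 and 11.38 in aOL. Hdac3 had the smallest p downwards, with a difference of -0.65 (limma adjusted p = 0.235). None of 5 bHLH partners and E proteins passed in either direction. Olig2, the bHLH factor of the lineage, was at 14.22 and 12.96 in aOPC and at 14.18 and 14.23 in aOL, and Olig1 differed by -0.40. Of 16 drivers of oligodendrocyte differentiation tested, 1 was higher and 1 lower. Myrf, the activator of myelin genes, was at 15.69 and 15.11 in aOPC and at 16.26 and 16.14 in aOL (difference 0.80, limma adjusted p = 0.196), and Zfp488 was at 10.93 and 11.92 against 10.27 and 10.19. The median difference was -0.24 over the drivers and -1.87 over the restraining factors, and 8 of the 16 drivers and 7 of the 8 factors lay without overlap on the low side, where 29.9% of all genes did. On the high side were 4 drivers and none of the factors, against 31.9% of all genes.

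**Figure D2:**
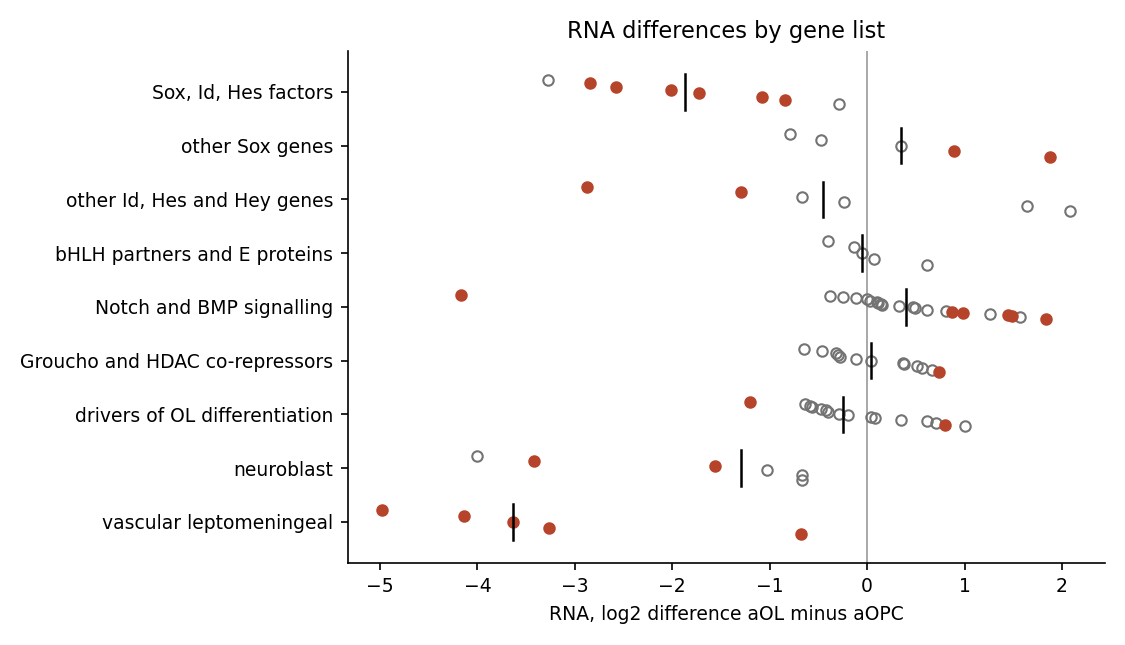
RNA difference between aOL and aOPC (log2, horizontal axis) of each tested gene in the Sox, Id and Hes factors, the related lists and the neuroblast and vascular leptomeningeal marker lists. Filled red points have an unadjusted p under 0.05, open points do not, and vertical bars are medians. The median of the restraining factors lies at -1.87 and that of the leptomeningeal markers at -3.64, while the medians of the related lists lie between -0.45 and 0.40.

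In RRHP, the 10 genes fell into 2 kinds by structure. Sox5 (chromosome 6, 143828425 to 144782287, minus strand, GRCm38) and Sox6 (chromosome 7, 115470872 to 116040776, minus) are long genes made mostly of intron, with 0.637 and 0.497 CCGG per kb. The other 8 are compact genes of 1.75 to 8.45 kb with 2.96 to 12.02 CCGG per kb. They are Sox2 (chromosome 3, 34649995 to 34652461, plus), Sox4 (chromosome 13, 28948919 to 28953699, minus), Sox9 (chromosome 11, 112782210 to 112787757, plus), Sox11 (chromosome 12, 27334268 to 27342718, minus), Id2 (chromosome 12, 25093799 to 25096092, minus), Id4 (chromosome 13, 48261116 to 48266028, plus), Hes1 (chromosome 16, 30065357 to 30067796, plus) and Hes5 (chromosome 4, 154960626 to 154962372, plus). In the deposited annotation the sites of Sox5 begin 573 kb into the RefSeq gene, so its first part carries no Sox5 label and is not included. Of the 269 sites of the compact genes 78.4% lay in CpG islands, against 7.89% of the 469 sites of Sox5 and Sox6.

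The promoters of Sox2 and Id4 show how CpG islands look to a method that reads CCGG alone. These are the 250 bases before the RefSeq start of Sox2 (chr3:34649745-34649994, plus strand) and of Id4 (chr13:48260866-48261115, plus strand), GRCm38.p6, 5′ to 3′, with each CCGG in capitals.
Sox2: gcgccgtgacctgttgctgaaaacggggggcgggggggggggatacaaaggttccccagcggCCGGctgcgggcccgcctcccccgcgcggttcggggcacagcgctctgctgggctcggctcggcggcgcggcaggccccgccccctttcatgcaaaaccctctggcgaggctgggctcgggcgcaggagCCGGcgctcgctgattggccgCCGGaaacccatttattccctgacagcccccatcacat
Id4: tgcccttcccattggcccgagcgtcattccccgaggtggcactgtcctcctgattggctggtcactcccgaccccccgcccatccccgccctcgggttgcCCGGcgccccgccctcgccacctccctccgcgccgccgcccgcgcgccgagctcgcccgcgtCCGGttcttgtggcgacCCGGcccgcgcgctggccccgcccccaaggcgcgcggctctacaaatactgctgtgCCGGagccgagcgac
The Sox2 window holds 27 CpG and 3 CCGG, and the Id4 window 35 CpG and 4 CCGG, so most CpG in them are not read by the method. Over 32851 RefSeq promoters, the median was 6 CpG, 47.1% held at least 1 CCGG and 26.5% at least 2. The 4 sites read in the Sox2 window had 1, 3, 4 and 5 counts in aOPC replicates 2 and 3 and then aOL replicates 2 and 3, and the 5 sites read in the Id4 window had 4, 12, 8 and 25. RefSeq windows were matched for 8 of the 10 genes, all but Sox9 and Hes1.

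Hes5 was printed for its link to Notch. Before the start of its curated RefSeq transcripts, the window of the same length held 2 matches to the letters GTGGGAA, the core that RBPJ binds, searched on both strands. Of all promoters 5.42% held at least 1 match and 0.161% at least 2. The matches are shown with their surroundings, plus strand, with the 7 letters in capitals, and begin at positions -226 and -83 relative to that start.
Hes5 at chr4:154960686-154960715: gggcgagcgcgTTCCCACagcccggacatt
Hes5 at chr4:154960829-154960858: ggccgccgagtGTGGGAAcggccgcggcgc
The earlier match is on the reverse strand. The 6 sites read in this window had 6, 6, 7 and 12 counts in the 4 libraries (aOPC replicates 2 and 3, then aOL replicates 2 and 3). A match is a description of the letters and not a bound site.

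Signal was concentrated in Sox5 and Sox6. Summed over exons and introns, the gene body of Sox5 was at 194 and 256 CPM (counts per 1000000 counts of the library) in aOPC and at 275 and 251 in aOL. That of Sox6 was at 148 and 180 in aOPC and at 199.6 and 199.9 CPM in aOL. Together they held 91.9% of the counts of the 10 genes, and by mean CPM they ranked 164 and 303 of 18488 gene bodies. Each compact gene had between 0.565 and 11.4 CPM in its gene body and lay below the middle of that ranking, from 12624 for Hes5 to 17241 for Id2. Per site, the 4 libraries together gave 63.4 counts in Sox5 and Sox6 and 9.69 in the compact genes, close to the 58.0 of intron sites outside islands and the 11.99 of island sites over the whole genome.

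**Figure D3:**
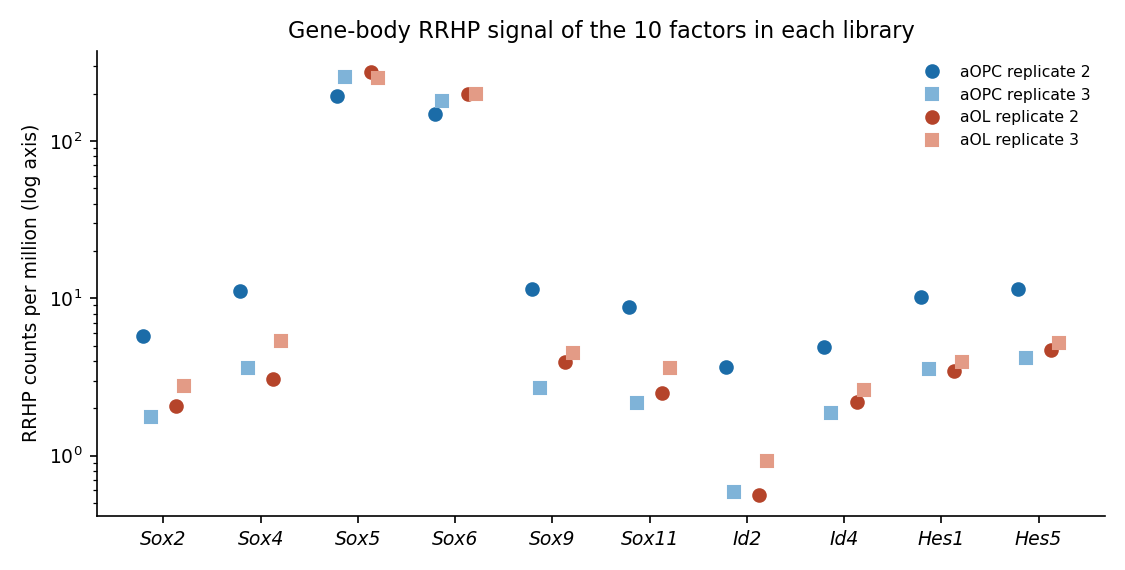
RRHP signal in CPM summed over the gene body (log axis) of the 10 factors in each library, with blue for aOPC, red for aOL, circles for replicate 2 and squares for replicate 3. Sox5 and Sox6 lie at 148 to 275 CPM and the other 8 at or below 11.4 CPM, and for each of those 8 aOPC replicate 2 is the highest library.

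No gene body of the 10 was called between populations, where 0.849% of gene bodies were (edgeR adjusted p under 0.05), and 0 were under an unadjusted p of 0.05, where 7.3% of gene bodies were. DESeq2 called none either. Sox6 differed by 0.27 on the log2 scale (standard error 0.14, 95% interval -0.04 to 0.58, edgeR adjusted p = 0.726) and Sox5 by 0.21 (95% interval -0.14 to 0.55, edgeR adjusted p = 0.773), both above 0 in aOL. Among the 303 gene bodies with a mean CPM at least that of Sox6 the median difference was 0.08, and 9 lay above Sox6. The aOL libraries were higher than both aOPC libraries for Sox6, but for Sox5 aOPC replicate 3 lay above aOL replicate 3. Without aOPC replicate 2 the differences were 0.016 for Sox5 and 0.13 for Sox6, and without aOPC replicate 3 both were 0.44.

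The 8 compact gene bodies lay at differences from -1.36 (Id2) to -0.43 (Id4), and the edgeR adjusted p was at least 0.737 for each. For Id2 the gene body held 26 and 10 counts in aOPC, against 9 and 25 in aOL, which is 3.66 and 0.584 CPM against 0.565 and 0.924. For Hes5 the values were 11.4 and 4.15 CPM in aOPC and 4.71 and 5.21 in aOL, and for Sox4 11.1 and 3.62 against 3.08 and 5.32. In each of the 8, aOPC replicate 2 was the highest library, by 1.88 to 3.96 times over the next. The 8 together were at 90.0 CPM in aOPC replicate 2 and at 28.3 to 38.1 CPM in the other libraries, and island sites of the whole genome followed the same order, at 57384 CPM against 23755 to 33218. Without aOPC replicate 2 all 8 differences lay above 0, from 0.05 (Hes1) to 0.64 (Sox9), and none was called, with 608 gene bodies called in all. Without aOPC replicate 3 all 8 lay below 0 and 9 of the 10 gene bodies were called (all but Id4), with 4205 gene bodies called in all.

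Read per region, promoters and islands of the compact genes stood at a few counts per site. Of the 9 promoters tested (Sox5, with 7 counts in all, did not pass the filter), none was called, where 0.768% of promoters were (edgeR), and none reached an unadjusted p under 0.05, where 5.97% of promoters did. Their differences ran from -0.45 (Id4) to 0.22 (Sox6), at an edgeR adjusted p of 0.998 each, and DESeq2 called none. The fits for promoters and islands scaled aOPC replicate 2 down, with TMM factors of 1.75 and 2.16. Of the 10 island sums none was called, where 0.579% of island sums were (edgeR and DESeq2 alike gave 0 members). In the compact genes the island differences lay closer to 0 than those of the gene bodies, at 0.32 for Sox2, 0.09 for Sox9, 0.08 for Hes5, 0.0052 for Sox4, -0.04 for Sox11, -0.07 for Hes1, -0.26 for Id2 and -0.27 for Id4. The fit over gene bodies left aOPC replicate 2 almost unscaled, with a TMM factor of 1.006. The sum over the 5 island sites of Sox5, with 25 and 54 counts in aOPC, against 67 and 110 in aOL, differed by 0.86 (95% interval 0.05 to 1.67, edgeR adjusted p = 0.745). It was the 1 member with an unadjusted p under 0.05, where 3.82% of island sums were higher at that threshold. Its difference was 0.28 without aOPC replicate 2 (unadjusted p = 0.425 in edgeR), 1.66 without aOPC replicate 3 (then called, edgeR adjusted p = 0.00116, with 470 island sums called in all), 0.55 without aOL replicate 2 and 0.31 on library totals without TMM (unadjusted p = 0.733).

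Of the 738 sites, 189 had at least 10 reads in at least 2 libraries and were tested singly. Sox5 held 97 of them and Sox6 88, while Hes5 had 2, Sox9 and Id4 had 1 each, and the other compact genes none. None of the 189 was called, where 2.29% of the 443062 sites tested were (edgeR), and DESeq2 gave 0 as well. None of the 1020 windows of 2 kb with at least 2 called sites of one direction held a site of the 10 genes. At an unadjusted p under 0.05, 17 of the 189 were higher in aOL (8.99%, against 5.45% of all sites) and 2 were lower (1.06%, against 4.31%). The aOL libraries lay above both aOPC libraries in CPM at 34.4% of the 189 sites, against 23.3% of all sites, and below both at 5.29%, against 17.2%. In introns outside islands, aOL lay above both aOPC libraries at 33.3% of the 171 sites of the 10 genes, against 25.8% of all such sites, and the median difference was 0.18 against 0.03. Sites of one gene share their DNA and libraries and are not independent.

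The sites that carried most reads, or the smallest p, in each gene with tested sites are shown with 30 bases of GRCm38 on their own strand, 5′ to 3′, and the CCGG in capitals.
Sox5, intron, chr6:143885332-143885361, plus: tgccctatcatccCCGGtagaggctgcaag
Sox5, intron, chr6:144060633-144060662, minus: ctgcttataaaacCCGGgtatctaagccca
Sox6, UTR, chr7:115476658-115476687, minus: taaatatgagacaCCGGgacttggaaactt
Sox6, intron, chr7:115944583-115944612, minus: atgcatgggggctCCGGagggaggaaacca
Sox9, UTR, chr11:112785738-112785767, minus: ggccacgagtggcCCGGccatttgcaatat
Id4, UTR, chr13:48263018-48263047, minus: ccccccctttcctCCGGtggcttgtttctc
Hes5, UTR, chr4:154961789-154961818, plus: aaggctccctcctCCGGctggctggccagc
Hes5, UTR, chr4:154961949-154961978, minus: tatcatagaacccCCGGtggtgaccaggaa

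The most read site of Sox5, the first of these, lay in an intron 897 kb from the gene's 5′ end and had 69 and 187 counts in aOPC, against 190 and 328 in aOL. In CPM these were 9.70 and 10.9 against 11.9 and 12.1, a difference of 0.11 (standard error 0.25, edgeR adjusted p = 0.935). The most read site of Sox6 lay in a UTR, 564 kb from the 5′ end, with 53, 193, 195 and 317 counts in the same order (difference 0.24, edgeR adjusted p = 0.847). Both sites stood slightly higher in each aOL library, by less than their standard error. The Hes5 site with most reads, in a UTR outside any island, had 24, 35, 35 and 63 counts. At 3.37 and 2.04 CPM in aOPC and 2.20 and 2.33 in aOL its groups overlapped (edgeR adjusted p = 0.88).

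The smallest p in Sox5 was at the intron site 722 kb from the 5′ end, at position 144060648. It had 7 and 15 counts in aOPC, against 46 and 56 in aOL. In CPM the values were 0.984 and 0.876 versus 2.89 and 2.07, a difference of 1.33 (standard error 0.42, edgeR adjusted p = 0.179). The sites at 144060266, with 4, 14, 35 and 39 counts, and at 144061464, with 16, 80, 108 and 163, lay in the same intron and were also above 0 at an unadjusted p under 0.05. These 2 neighbours were chosen after their values were seen. In Sox5 61 of the 97 tested sites lay above 0, 10 of them and no site below 0 at an unadjusted p under 0.05. Of all tested sites 49.2% lay above 0, and of those in introns outside islands 52.2%.

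The smallest p in Sox6, and over all 10 genes, was at an intron site 96.2 kb from the 5′ end, at position 115944598. It had 13 and 11 counts in aOPC, against 3 and 7 in aOL. In CPM the values were 1.83 and 0.642 versus 0.188 and 0.259, a log2 difference of -2.28 (standard error 0.69, edgeR adjusted p = 0.142). Without aOPC replicate 2 it was -1.42, no longer at an unadjusted p under 0.05, and without aOPC replicate 3 it was -3.16. The plus-strand site at 115944529, chosen after its values were seen, had 36 and 73 counts in aOPC, against 33 and 82 in aOL, and its difference was -0.92. These were the only sites of the 10 genes below 0 at an unadjusted p under 0.05. Over the whole of Sox6 64 of 88 tested sites lay above 0, 7 of them at that threshold.

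**Figure D4:**
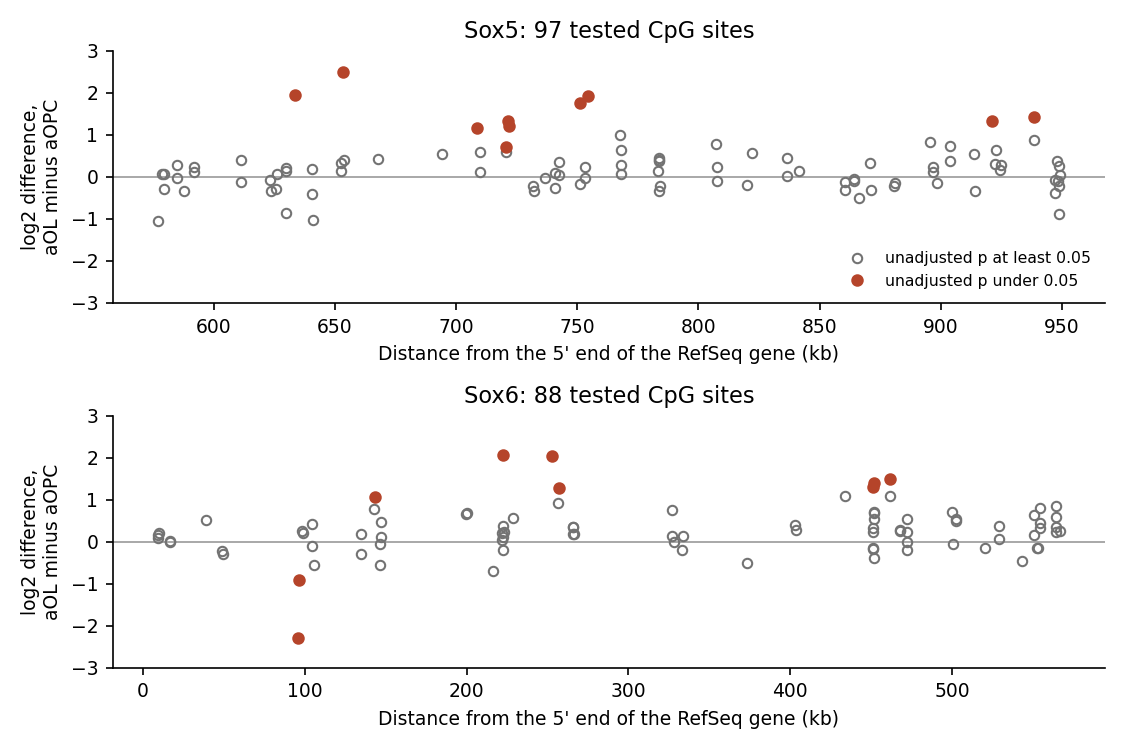
Difference in RRHP between aOL and aOPC (log2, vertical axis) at each tested CpG site of Sox5 (97 sites) and Sox6 (88 sites) against the distance from the 5′ end of the RefSeq gene (kb). Filled red points have an unadjusted p under 0.05 and open points do not. The red points lie above 0 except at the neighbouring pair near 96.2 kb in Sox6.

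The most read sites of the remaining genes show how little signal was there. In Sox2, in the coding sequence 757 bases from the start, the 4 libraries gave 3, 4, 3 and 7 counts, and in Id2, in the coding sequence 164 bases from the start, they gave 5, 2, 2 and 7. Sox11 had 9, 2, 3 and 5 at position -447 relative to its start, Hes1 5, 2, 6 and 11 in its coding sequence, and Sox4 6, 3, 6 and 9 in a UTR. At these 5 sites each library's count was at most 11, and a floor of 3 counts is between 0.111 CPM (aOL replicate 3) and 0.422 CPM (aOPC replicate 2). Counts this low limit what could be seen. With no filter on low counts, where 23177 sites were called in all, no site of the 10 genes was called (edgeR).

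RNA and gene-body values were then placed side by side. Sox6 had a difference of -1.72 in RNA and of 0.27 in gene-body RRHP, and neither was called. Sox2, Sox4, Sox9, Sox11, Id2, Id4 and Hes1 were below 0 in both, but over their island sites Sox2, Sox4 and Sox9 lay above 0, and none of these RRHP differences was called. The gene-body direction of those 7 turned without aOPC replicate 2, while their RNA direction without it stayed below 0 except for Sox9, at 0.12. For Id2, the factor with the clearest RNA difference, RRHP rested on 70 counts over 9 sites.

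**Figure D5:**
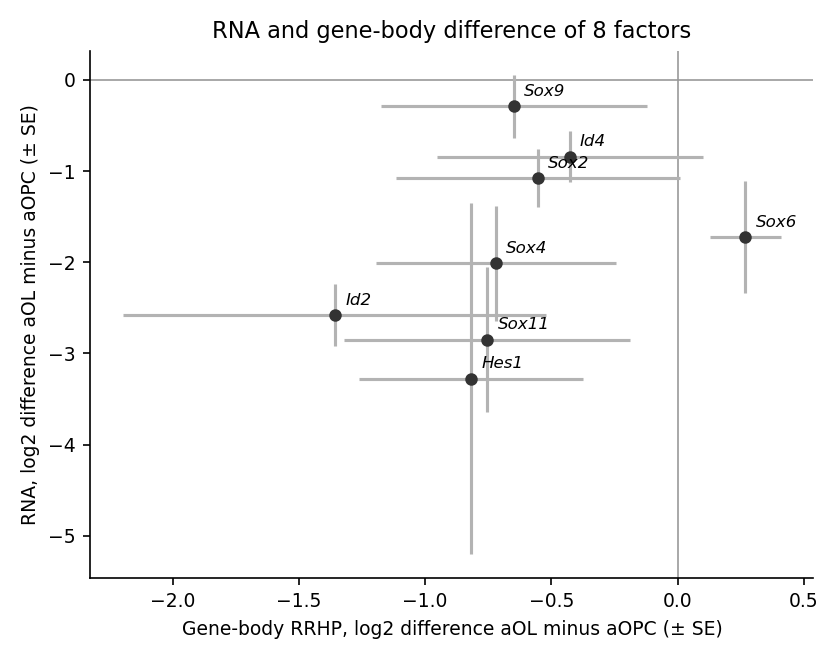
RNA difference (vertical axis) against gene-body RRHP difference (horizontal axis), both aOL minus aOPC on the log2 scale, for the 8 factors with both measures. Points are estimates and bars are standard errors from limma and edgeR. Sox6 is the one point to the right of 0, at 0.27, and the other 7 lie to the left of 0 with all libraries and to the right without aOPC replicate 2.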

How the data were processed

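Sox, Id and Hes factors were followed in 4 RNA libraries and 4 RRHP libraries of sorted mouse cells. The deposited RNA values are log2 expression levels per gene symbol. The study's methods state that reads were aligned to mm10 with BWA, counted over exons and normalized with DESeq2. The 4 libraries share almost the same distribution of values, and how the authors made the log2 values from the counts is not given in the sources used here. The log2 values carry no read depth. For RRHP the authors deposited raw counts per CpG site and strand, with promoter, exon, intron and island columns. The aligner and the treatment of duplicates are not given in the sources used here, sites missing from a library were given a count of 0, and every site of the 10 genes lay at a CCGG of GRCm38, the build equal to mm10. The promoter column reached from -984 to 1295 bases around the RefSeq start in the 8 compact genes. RRHP totals were 7113237 and 17121440 for aOPC replicates 2 and 3, against 15923775 and 27057859 for aOL, and floors and counts cover counting error only, since reads had no molecular identifiers.

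RNA was tested with limma 3.58.1 (genes reaching a log2 value of 5 in 2 or more libraries, a call at p under 0.01 and Benjamini-Hochberg adjusted p under 0.05). RRHP counts were tested with edgeR 4.0.16, by the quasi-likelihood test with TMM scaling on library totals, over single sites (at least 10 reads in at least 2 libraries) and over sums per gene body, promoter or island (filterByExpr), at an adjusted p under 0.05. All fits were made over the whole tables. DESeq2 1.42.0, other filters and scalings, a replicate block and leaving out each library were alternatives, computed in R 4.3.3 with figures from Python 3.11.15. The RNA, gene-body and island fits were checked on simulated data with a fixed spread for all features and no library of different composition. That check does not cover the uneven spread or the island share of aOPC replicate 2. The study speaks of biological replicates, without saying whether each was a separate animal or a pool, and p-values measure the spread between these libraries. An exact permutation test of 2 against 2 cannot give a p under 0.333. Same-numbered libraries of the populations come from different reporter lines, and their deviations were not positively correlated (-0.07 in RNA, -0.06 over RRHP sites, -0.42 over gene bodies), so the fits had no block.

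The genes, the related lists and the marker lists were chosen with earlier results of these data known. The rule was to name all 10 factors, the gene with the smallest p in each direction of each related list, Pdgfra, Mbp, Aldh1l1, Cldn5, Dcx and the marker with the smallest p of each marker list, and for each factor the site with most counts and the tested site with the smallest p. Gene coordinates, promoter windows and sequences are from RefSeq (GRCm38.p6) and exon, coding and UTR labels of sites from GENCODE.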

Additional observations from a re-analysis of the deposited data

How the results depend on the processing

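No member called in RNA, in promoters or at single sites was gained or lost by another scaling or filter. The count of RNA genes called, 9, was 0 without the filter on low values and 0 when every library had to reach a log2 value of 5, 23 with an intensity trend and robust prior, 127 with a replicate block and from 106 to 3805 with 1 library left out. Members called in RNA were 1 with the replicate block (Sox11) and 0 to 3 with 1 library left out, and the 6 members lower at an unadjusted p under 0.05 were 3 to 7 with 1 library left out. The RNA difference of Sox9 turned to 0.12 without aOPC replicate 2 (range -0.70 to 0.12). CpG sites called were 490 with 10 reads in every library, 23177 with no filter, 6590 by DESeq2, and 3044 to 11708 with 1 library left out. The Sox6 site at 115944598 was the 1 member site called with the replicate block. The difference of the tested Sox9 site ran from -0.025 to 0.25 with 1 library left out.

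Gene bodies called were 10 when sites under 3 reads in any library were dropped from the sums and 84 to 4205 with 1 library left out, with 0 to 9 members among them. The gene-body differences with 1 library left out ran from -1.22 to 0.47 for Sox2, -1.35 to 0.23 for Sox4, -1.41 to 0.64 for Sox9, -1.49 to 0.51 for Sox11, -2.22 to 0.38 for Id2, -1.004 to 0.36 for Id4, -1.43 to 0.045 for Hes1 and -1.18 to 0.24 for Hes5, each highest without aOPC replicate 2, and from 0.016 to 0.44 for Sox5 and 0.13 to 0.44 for Sox6, each lowest without it. That of Id4 was 0.14 over sites with 3 reads in every library. Promoters called were 219 with no filter, 38 over such sites, 67 by DESeq2 and 62 to 1608 with 1 library left out. Island sums called were 17 over such sites, 4 without TMM, 5 by DESeq2, 8 with the replicate block and 6 to 470 with 1 library left out, with 0 to 1 member (Sox5, without aOPC replicate 3). A crossed pairing, added after the data were seen because same-numbered libraries deviated in opposite directions, gave 718 gene bodies, 337 promoters and 270 island sums, with 1 member (the Sox5 island sum). The causes were not tested. The block changed no other call of a member. The RNA values carry no read depth, and in the 8 compact genes RRHP depth limits what could be seen.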

Other observations

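Sox2 lies inside the long noncoding gene Sox2ot (chromosome 3, 34560381 to 34677993, GRCm38), whose RNA was not listed. Outside the sites shared with Sox2, 108 sites of Sox2ot held 739 and 1348 RRHP counts in aOPC and 1012 and 1675 in aOL, which is 104 and 78.7 CPM against 63.6 and 61.9. Both aOPC libraries stood above both aOL libraries there. The gene body of Sox2 itself overlapped, at 5.76 and 1.75 CPM in aOPC and at 2.07 and 2.77 in aOL. Over the whole Sox2ot gene body the difference was -0.54 ± 0.15 (standard error), not called (edgeR adjusted p = 0.235). The neighbour of Id4, A330033J07Rik (chromosome 13, 48044231 to 48262623), which overlaps the start of Id4 and shares 31 sites with it, was at 40.8 and 40.4 CPM in aOPC and 45.7 and 47.9 in aOL outside those sites, and its gene-body difference of 0.08 was not called (edgeR adjusted p = 0.879). Both genes were chosen for their position beside a factor, with no rule fixed for them.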
